A study of Mus musculus with 8 samples.

Results

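The comparison is between CD4+ effector T cells recovered from the small intestine of hosts that lacked Asbt and of hosts that had it. It rests on 4 of the study's 8 RNA-seq libraries, chosen by their labels alone: 2 from Asbt-/- hosts (labelled Rag1-/- Slc10a2 -/-) and 2 from Asbt+/+ hosts (labelled Rag1-/- Slc10a2 +/+), both on a C57BL/6 background. Within each host, 1 library was labelled as carrying the short hairpin shMdr1 and 1 the hairpin shCD8, both from the retroviral vector LMPd, so that each Asbt-/- library has 1 Asbt+/+ library of the same hairpin beside it. These are called here the shMdr1 pair and the shCD8 pair. All hosts were Rag1-/-, a deletion that leaves a mouse without its own T and B cells, and about 10000 congenic CD4+ T cells were sorted per library 6 weeks after transfer. The other 4 libraries, from the spleen with the same hosts and hairpins, entered the statistical fit and serve as the comparison tissue. The hairpin was read from the sample titles, since the field that names the retrovirus gives the Mdr1 hairpin for all 8 libraries. The labels name no animals, so the libraries stand in for replicates. Each p-value reflects how far these libraries varied, and that variation may be partly technical.

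Asbt, encoded by Slc10a2, is the sodium-dependent transporter that takes conjugated bile acids back up from the lumen of the ileum. Without it, bile acids stay in the lumen, and fewer reach the ileal tissue and return to the liver. Mdr1, encoded in the mouse by Abcb1a and Abcb1b, is an ATP-driven efflux pump that exports lipophilic compounds, and the study asks how it serves T cells where bile acids are present. The host comparison asks what the intestinal T cells expressed when the epithelium around them lacked this uptake route.

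The 4 intestinal libraries held between 1685225 and 2767105 counts. They differed in complexity: at a common depth of 1685225 counts, the shCD8 Asbt+/+ library was expected to show 8152 genes and the other 3 intestinal libraries between 10985 and 12126. That library also lacked any count for 54 of the 3201 genes that reached 20 CPM (counts per 1000000 of TMM-scaled library size) in all 7 others, while the remaining intestinal libraries lacked 0 such genes. Mitochondrially encoded transcripts took 18.3% of the counts in the shMdr1 Asbt+/+ library and 7.06 to 8.62% in the other 3. Both Asbt+/+ libraries thus stood apart from the rest, each in its own measure, and what this contributed to the host differences was not tested. Cd4 was at 225 and 234 CPM in the shMdr1 and shCD8 Asbt+/+ libraries and at 134 and 177 CPM in the corresponding Asbt-/- libraries. Cd8a, the marker of the other T cell lineage, was at 96.3 and 0 CPM in the Asbt+/+ libraries and 27.7 and 22.7 CPM in the Asbt-/- libraries. Slc10a2 had 0, 0, 1 and 0 counts in the 4 libraries, which checks no host label because the deletion is in the host and not in the transferred cells. Abcb1a, the target of the hairpin, had 23 counts in the shMdr1 and 21 in the shCD8 library from Asbt+/+ hosts, so its count did not separate these hairpin labels, and 102 against 228 from Asbt-/- hosts. The pair names below are therefore labels only.

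Of 37411 genes in the table, 10000 had enough counts to be tested. In edgeR's quasi-likelihood fit of all 8 libraries, with hairpin and host effects set separately in each tissue, 0% of the 10000 genes passed a Benjamini-Hochberg adjusted p of 0.05 for the host effect in the intestine, and the smallest adjusted p was 0.624. At an unadjusted p under 0.05 there were 743 genes (7.43%), of which 545 (5.45%) were higher and 198 (1.98%) lower in Asbt-/- hosts. No gene below is therefore called changed by that test, and "higher" and "lower" describe the measured levels. The number of calls depended on the fit. When the 4 intestinal libraries were fitted alone with the hairpin pair as a block, which leaves 1 residual degree of freedom, 6 genes passed: Tob1 was higher in Asbt-/- hosts, and Hist1h1e, Reg3g, Reg3b, Tff1 and Tff2 were lower. DESeq2's Wald test on all 8 libraries called 65 genes, 48 higher and 17 lower, and limma-voom called 0.

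The 2 pairs share no library, so each gene has a pair of separate host ratios. The log2 ratio of CPM (with a prior count of 2 added) was at least 1, a 2-fold difference, in the same direction in both pairs for 1096 genes higher in Asbt-/- hosts (11% of those tested) and for 406 genes lower (4.06%). A further 1278 genes (12.8%) passed 2-fold in both pairs in opposite directions, fewer than the sum of the higher and lower genes. Across genes, which are not independent replicates, the ratios of the pairs had a Pearson correlation of 0.06 and a Spearman correlation of 0.04. In 23.7% of genes both Asbt-/- libraries lay above both Asbt+/+ libraries, and in 11.8% both lay below. With 2 libraries against 2, an exact permutation test of 1 gene cannot go below p = 0.333.

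**Figure D1:**
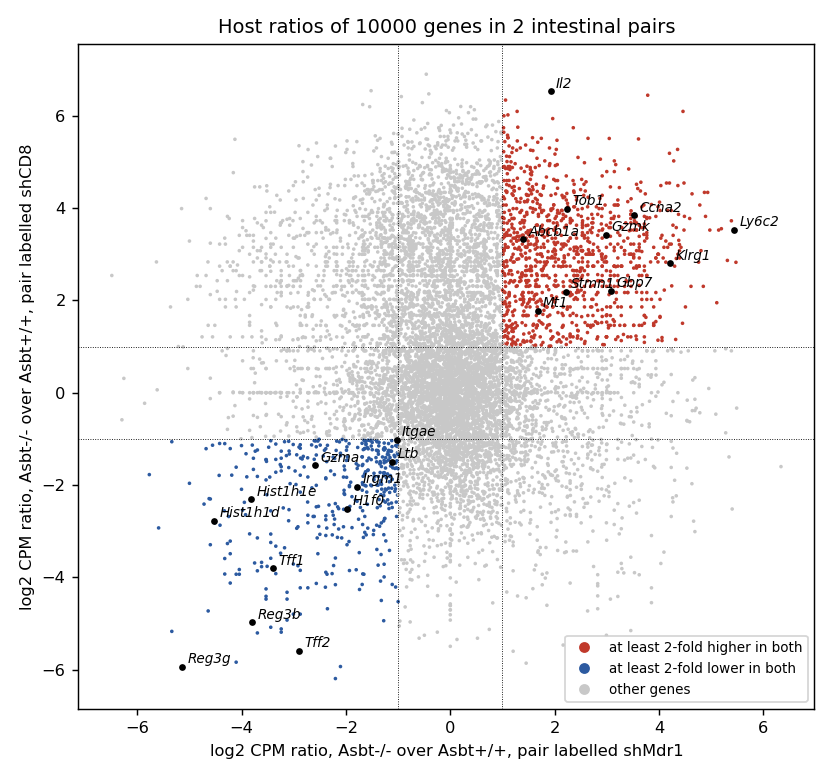
Each of the 10000 tested genes is a point at its log2 CPM ratio of Asbt-/- over Asbt+/+ in the pair labelled shMdr1 (horizontal) and shCD8 (vertical), with dotted lines at 2-fold. Red marks the 1096 genes at least 2-fold higher in both pairs, blue the 406 at least 2-fold lower and grey the rest, and named genes are in black. The cloud shows no common axis (Pearson correlation 0.06) and reaches further upward than downward.

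Many genes higher in both pairs had no count in an Asbt+/+ library, which their choice by a high ratio favours. Of the 1096, 682 (62.2%) had none in the shCD8 Asbt+/+ library and 337 (30.7%) none in the shMdr1 one, against 24.8% and 8.03% of all tested genes. The median ratio over all genes was 0.01 in the shMdr1 pair and 0.53 in the shCD8 pair, and the median fitted log2 fold change was 0.36, so a list median is read here against that value. Among the 2567 genes with a mean of 50 CPM or more, a limit added after the data had been seen, the median fold change was 0.004, and 31 genes (1.21%) were at least 2-fold higher in both pairs, 42 (1.64%) lower and 82 (3.19%) opposite. The named genes that were higher with hardly a count in Asbt+/+ hosts are therefore given with their counts, and with a lower bound of the fold where that host had no count (its floor set at 3 counts over both libraries).

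Among the 31 gene lists examined, the cell cycle genes had the highest median fold change. These 40 genes drive DNA replication and mitosis, and 24 of them were higher in Asbt-/- hosts in both pairs and 0 lower in both, beside 32.4% and 18.4% of all tested genes. At least 2-fold higher in both pairs were 9 of 40 (22.5%, beside 11% of all genes): Ccna2, Cdc6, Plk1, E2f1, Cdk1, Stmn1, Mcm4, Bub1b and Tubb5. In the shMdr1 pair alone, 24 of the 40 were at least 2-fold higher and 1 was lower, beside 21.1% and 19.6% of all genes. That pair does not use the low-complexity library, but its Asbt+/+ library is the one with 18.3% mitochondrial counts. The list's median log2 fold change was 1.36, and its median ratio was 1.21 in the shMdr1 pair and 1.60 in the shCD8 pair. By the edgeR fit 0 of 40 passed the adjusted threshold, and 11 had an unadjusted p under 0.05, all higher.

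The promoters of a pair of these genes are shown for the elements that many cell cycle promoters carry. Cdk1 is the kinase that drives entry into mitosis, and Plk1 a kinase of spindle assembly and mitotic exit. Each line gives 250 bases before to 50 after the RefSeq start, build GRCm38.p6, read 5′ to 3′ along the gene, with capitals at the letters CCAAT (either strand) and TTTGAA, the core of the element through which cell cycle genes are repressed outside the cycle. Cdk1 is at chr10:69352863-69353162 on the minus strand and Plk1 at chr7:122159185-122159484 on the plus strand.
Cdk1: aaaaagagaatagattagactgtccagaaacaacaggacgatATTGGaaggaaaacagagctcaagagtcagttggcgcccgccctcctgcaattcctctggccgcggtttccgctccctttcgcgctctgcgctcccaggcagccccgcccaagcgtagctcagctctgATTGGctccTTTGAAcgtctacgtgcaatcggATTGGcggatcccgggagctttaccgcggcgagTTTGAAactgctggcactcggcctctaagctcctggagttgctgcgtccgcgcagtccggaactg
Plk1: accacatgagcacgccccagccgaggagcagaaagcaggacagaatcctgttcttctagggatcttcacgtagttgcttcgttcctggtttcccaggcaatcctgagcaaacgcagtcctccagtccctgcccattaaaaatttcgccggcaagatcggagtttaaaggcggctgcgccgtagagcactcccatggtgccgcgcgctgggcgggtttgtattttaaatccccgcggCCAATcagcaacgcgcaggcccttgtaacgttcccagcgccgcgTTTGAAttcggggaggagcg
The Cdk1 promoter holds 3 matches to CCAAT and 2 to TTTGAA, and the Plk1 promoter 1 of each. Over the list, 75.8% of 33 promoters in the RefSeq table held CCAAT and 39.4% held TTTGAA, on either strand, against 39.1% and 12.1% of the 7465 tested genes with a promoter there. For all genes at least 2-fold higher in both pairs, the shares were 40.6% and 13.3% of 810 promoters, close to those of all tested genes, and for those lower 35.8% and 14.2% of 260. These matches describe the letters and not whether a factor was bound.

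Among the genes that start and drive the cycle, Ccna2, the cyclin of S phase and mitosis, was at 4.49 and 1.18 CPM in the shMdr1 and shCD8 Asbt+/+ libraries and at 61.4 and 29.1 CPM in the Asbt-/- libraries. Both Asbt-/- libraries were above both Asbt+/+ libraries, and the log2 fold change was 4.11 ± 0.65 (SE, edgeR, as for all fold changes below), on 7, 3, 155 and 73 counts. Its partner kinase Cdk1 had 5 and 0 counts in Asbt+/+ and 51 and 120 in Asbt-/- hosts, a pooled ratio of 27.8 with a 95% exact interval of 11.7 to 86.8 that covers counting error only. Plk1 had no count in either Asbt+/+ library and 11 and 17 in the Asbt-/- libraries, at least 7.6-fold higher. E2f1, a transcription factor of S phase genes, had 1 and 0 against 22 and 10 counts, and Cdc6, which loads the replicative helicase, had 9 and 0 against 106 and 24. Each of these 5 genes separated the hosts, on at most 10 counts over both Asbt+/+ libraries.

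The better-counted members had the same order with smaller ratios. Mcm4, a subunit of the replicative helicase, was at 16.0 and 6.31 CPM in Asbt+/+ and 61.0 and 53.9 CPM in Asbt-/- hosts (2.49 ± 0.60). Stmn1, which destabilises microtubules, was at 17.3 and 17.0 against 83.6 and 80.6 CPM, with nearly equal libraries within each host (2.26 ± 0.47). Tubb5, a beta-tubulin, was at 212 and 94.6 against 429 and 376 CPM (1.5 ± 0.37). Mki67, the widely used proliferation marker, did not overlap between hosts either, at 52.0 and 12.2 against 89.2 and 59.1 CPM (1.5 ± 0.48), although its shMdr1 pair ratio was 0.77. In 20 of the 40 genes the hosts did not overlap, all higher in Asbt-/-, beside 23.7% of all genes. Other members differed between the pairs: Cks1b was at 114 and 174 against 330 and 72.2 CPM, and Mcm6, another helicase subunit, at 99.5 and 132 against 107 and 117 CPM.

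**Figure D2:**
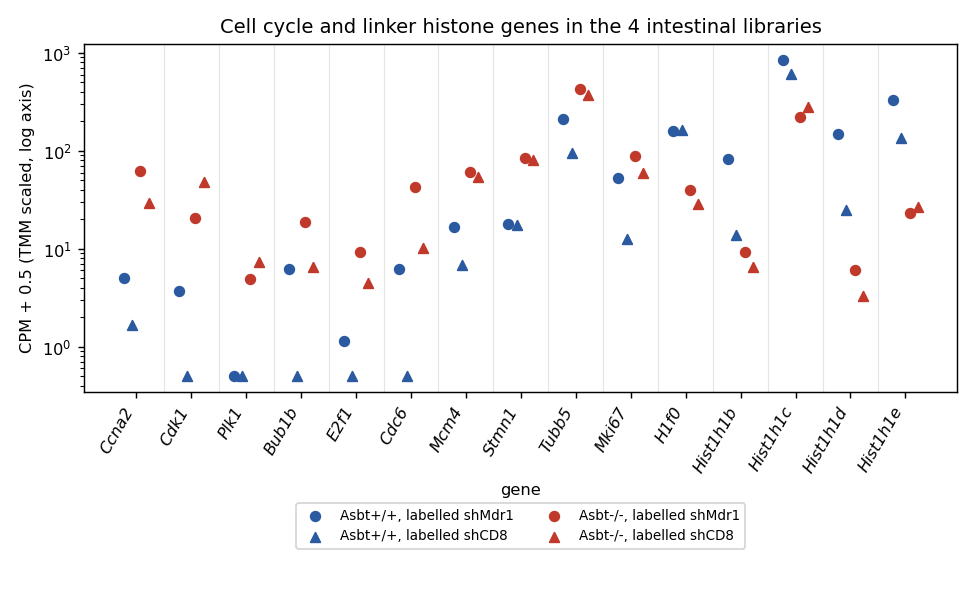
CPM (TMM scaled, plus 0.5, log axis) in each of the 4 intestinal libraries for 10 cell cycle genes and 5 linker histone genes. Blue marks Asbt+/+ and red Asbt-/- hosts, with circles for the libraries labelled shMdr1 and triangles for those labelled shCD8, 1 library each and no error bar. Every cell cycle gene plotted has both red symbols above both blue ones and every linker histone gene the reverse. Only genes whose hosts did not overlap are plotted. That held for 20 of the 40 cell cycle genes, and the linker histone gene Hist1h1a, which overlapped, is left out.

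The spleen did not show the same host difference for these genes. The list's median log2 fold change was -0.87 in the spleen and 1.36 in the intestine, with 38 of 40 genes below 0 in the spleen and 37 of 40 above 0 in the intestine, beside 51.9% and 61.5% of all tested genes. The median difference between the tissues was 2.29 for the list and 0.46 for all genes. The difference between the tissues was tested directly as a contrast in the same fit: 0 of 10000 genes passed the adjusted threshold (0%, smallest adjusted p = 0.937, edgeR), and 431 (4.31%) had an unadjusted p under 0.05. Of the 40 cell cycle genes, 18 were among these 431, all with the larger host fold change in the intestine. Ccna2 had a difference of 5.44 ± 0.84 on the log2 scale and Tubb5 of 2.35 ± 0.51. DESeq2's Wald test called 22 genes for this difference, 12 of them larger in the intestine, with Ccna2 and Cdk1 among them. The 10 in the other direction included the mitochondrially encoded mt-Co1, mt-Cytb, mt-Nd1, mt-Nd2, mt-Nd5, mt-Rnr1 and mt-Rnr2. Also among those 10 was the ribosomal RNA fragment Rn18s-rs5, with the smallest adjusted p of the 22 (0.00106, DESeq2). In the spleen the Asbt-/- libraries had 17.6 and 26.8% of counts from mitochondrial transcripts and the Asbt+/+ libraries 6.63 and 7.33%, and its part in the tissue difference was not tested.

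**Figure D3:**
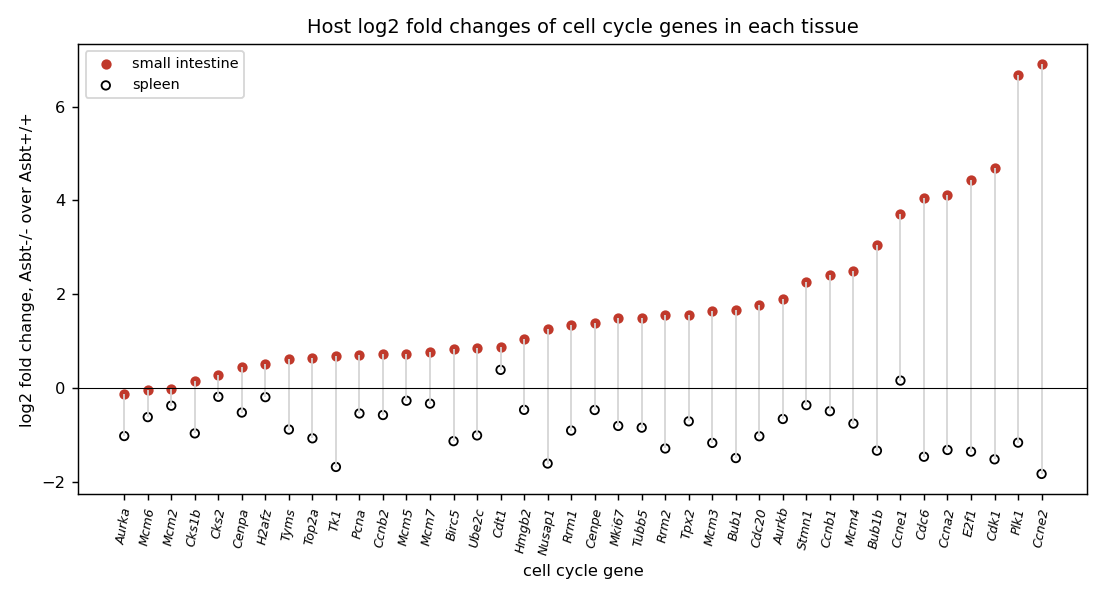
Fitted log2 fold change of Asbt-/- over Asbt+/+ for the 40 cell cycle genes in the small intestine (red) and the spleen (open circles), with a grey line joining the same gene and genes ordered by the intestinal value. Red points lie above 0 for 37 genes and open points below 0 for 38, and values from genes with no count in a host depend on the fitting.

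Other genes of growth and division outside that list were named by the size of their pair ratios (Diaph3 and Vrk1) or by their small p (Cenpw). Diaph3, a formin that nucleates actin at cell division, had 0 and 0 counts in Asbt+/+ and 40 and 81 in Asbt-/- hosts, at least 32.8-fold higher. Vrk1, a kinase of chromatin and nuclear envelope, had 5 and 0 against 141 and 197 counts. Cenpw, a centromere protein, was at 96.9 and 223 against 272 and 381 CPM (1.13 ± 0.35) and was lower in the spleen of Asbt-/- hosts (-1.37). All 3 were higher in both Asbt-/- libraries than in both Asbt+/+ libraries, as were 23.7% of all genes. Their choice by large ratios or small p favours such separation, so it adds no support.

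Linker histone genes had the opposite order, lower in Asbt-/- hosts in both pairs for 5 of 6 tested, beside 18.4% of all genes. Linker histones bind DNA between nucleosomes and compact chromatin. The 3 with the smallest p among lower genes that encode them, Hist1h1e, H1f0 and Hist1h1d, were named by rule, and the rest of the tested linker histone genes were looked up after their values were seen. That choice favours the lower direction, so the count of 5 of 6 beside the share of all genes adds no support. Hist1h1e was at 329 and 134 CPM in Asbt+/+ and 22.6 and 26.3 CPM in Asbt-/- hosts (-3.10 ± 0.53). H1f0, the replacement linker histone of cells that have stopped dividing, was at 158 and 164 against 39.2 and 27.9 CPM (-2.28 ± 0.42). Hist1h1d was at 148 and 24.5 against 5.55 and 2.79 CPM (-3.96 ± 0.77). Hist1h1c, with the highest level in this family, was at 851 and 608 against 221 and 283 CPM (-1.53 ± 0.35). Hist1h1b was at 81.5 and 13.4 against 8.72 and 5.99 CPM (-2.21 ± 0.90). The exception was Hist1h1a, with 20, 0, 15 and 2 counts and no common direction. In the spleen the fold changes of the 5 others lay between -0.68 and 0.27. The authors' counts do not distinguish polyadenylated from other histone transcripts, and near-identical histone coding sequences can share reads.

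Transcripts of the intestinal epithelium were lower in Asbt-/- hosts. They are markers of a cell type other than the sorted one, and in bulk libraries fewer cells of a type and less RNA per cell cannot be told apart. Summed over a 20-gene marker list, they were at 828 and 341 CPM in the Asbt+/+ libraries and 88.4 and 54.8 CPM in the Asbt-/- libraries. Of 13 markers tested, 8 were at least 2-fold lower in both pairs (beside 4.06% of all genes) and 10 did not overlap between hosts, all lower (beside 11.8%), while 11 of 13 were at least 2-fold lower in the shMdr1 pair alone. The spleen libraries had the same order at lower levels, with sums of 187 and 53.5 CPM in Asbt+/+ and 0.613 and 9.05 CPM in Asbt-/- hosts. Of the 13 markers, 11 had a fold change below 0 there, and the list median was -5.39 in the spleen and -5.54 in the intestine. Only markers that passed the count filter enter these counts. Some, such as Epcam and Krt8, had no count in the Asbt-/- intestinal libraries, so they passed largely through Asbt+/+ hosts. For them the filter favoured the lower direction, so the counts of markers beside the shares of all genes add no support. Krt20, Fabp6, Apoa1 and Muc2 were at 0 counts throughout the intestine. The part of this difference in the other results was not tested.

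The antimicrobial lectins and trefoil peptides were the most abundant of these in Asbt+/+ hosts. Reg3g, a C-type lectin that kills Gram-positive bacteria, was at 228 and 55.2 CPM in Asbt+/+ and 5.55 and 0 CPM in Asbt-/- hosts, on 355, 140, 14 and 0 counts, a pooled ratio of 43.4 (95% exact interval 25.6 to 80.05). Its related neighbour Reg3b, with which it may share some reads, was at 177 and 52.8 against 11.9 and 0.798 CPM. In the spleen Reg3b was at 36.2 and 24.1 against 0 and 0 CPM, and Reg3g at 22.1 and 6.45 against 0 and 0 CPM. Tff1, a trefoil peptide of mucus, was at 164 and 162 against 14.7 and 10.8 CPM (-3.69 ± 0.78), and Tff2 at 198 and 62.3 against 25.8 and 0.399 CPM. All 4 were among the 6 genes that passed when the intestine was fitted alone, with adjusted p between 0.000956 and 0.0383. Structural epithelial genes were low in Asbt+/+ libraries and at 0 or 1 count in Asbt-/- ones: Epcam had 22 and 33 against 0 and 0 counts (at least 22.5-fold lower), Krt8 23 and 33 against 0 and 0 (at least 22.9-fold), and Krt19 22 and 45 against 0 and 1. Saa3, an acute phase protein, was at 116 and 24.5 against 12.7 and 2.79 CPM.

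Among markers of other cell types, the neutrophil, mast cell and erythroid sums were lower in Asbt-/- hosts in both pairs and the other sums had no common direction or smaller differences. Most single markers did not share this order. Below 0 in both pairs were 3 of 9 tested neutrophil and 2 of 7 tested erythroid markers, beside 18.4% of all genes. In the shCD8 pair, 5 of the 9 neutrophil markers were above 0, with a list median of 0.52. Of 10 mast cell markers, 7 had no count in any intestinal library. The neutrophil markers summed to 200 and 110 CPM in Asbt+/+ and 14.6 and 49.2 CPM in Asbt-/- hosts, largely from S100a8, a calcium-binding protein of neutrophils, at 121 and 105 against 4.75 and 29.5 CPM, while Ly6g, Cxcr2 and Csf3r had no count. In the spleen S100a8 was at 4711 and 4224 against 1622 and 481 CPM, the neutrophil sums were 7714 and 6801 against 3051 and 872 CPM, and 9 of 9 tested markers had a fold change below 0. Kit, the stem cell factor receptor and the only tested marker of the mast cell list, was at 18.6 and 40.2 against 3.17 and 5.99 CPM. Xcr1, a chemokine receptor of cross-presenting dendritic cells, was at 28.9 and 45.7 against 7.53 and 8.38 CPM, although the sum of the class II and dendritic list overlapped (441 and 923 against 598 and 952 CPM). C1qc, a complement gene of macrophages, was higher in Asbt-/- hosts, at 1.93 and 0 against 24.2 and 28.7 CPM, with macrophage sums of 469 and 615 against 810 and 593 CPM. Marker sums of B and plasma cells (17.2 and 224 against 195 and 61.9 CPM), of NK and innate lymphoid cells (1503 and 1564 against 1608 and 1859) and of stroma (1496 and 1686 against 1311 and 1227, almost all Vim, which T cells also express) completed the check. The B cell receptor chain Cd79b had 16 and 43 against 0 and 1 counts, lower in both pairs although the B cell sums had no common direction. Erythroid markers summed to 89.4 and 127 against 44.6 and 49.2 CPM.

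Cytotoxic and tissue-residency genes had members in both directions, also within the granzymes and within the lectin-like receptors. Gzma, granzyme A, a serine protease of cytotoxic granules, was at 4197 and 2778 CPM in Asbt+/+ and 695 and 935 CPM in Asbt-/- hosts (-2.08 ± 0.74). It passed in DESeq2 (adjusted p = 0.0348) and in voom with library quality weights (adjusted p = 0.00781, the single call of that fit), and not in edgeR (adjusted p = 0.624). Its spleen fold change was -2.22, and the tissue difference of 0.14 ± 1.08 was not distinguishable from 0. Klrd1, the CD94 chain of an inhibitory lectin-like receptor, was at 332 and 141 against 82.4 and 68.2 CPM (-1.53 ± 0.79). Itgae, the alphaE chain that binds epithelial E-cadherin and marks resident T cells, was at 189 and 208 against 91.9 and 103 CPM (-1.03 ± 0.38). Cxcr6, a chemokine receptor of resident T cells, was at 597 and 412 against 279 and 259 CPM, below 2-fold in the shCD8 pair.

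Other members of the cytotoxic list had the opposite direction. Gzmk, granzyme K, was at 5.78 and 9.86 CPM in Asbt+/+ and 51.9 and 115 CPM in Asbt-/- hosts (3.35 ± 0.57), on 9, 25, 131 and 287 counts. Klrg1, an inhibitory receptor of differentiated effector cells, was at 1.93 and 8.68 against 51.5 and 66.2 CPM (3.68 ± 0.92). Serpinb9, an inhibitor of granzyme B, was at 37.2 and 0 against 76.5 and 47.9 CPM, its shMdr1 pair just past 2-fold. In all, 3 of 15 tested members were at least 2-fold higher and 2 lower in both pairs, beside 11% and 4.06% of all genes, and the list median was -0.64. The sign of that median differed between the pairs, at -0.65 (shMdr1) and 0.27 (shCD8), and it was 0.11 and 0.27 without the shMdr1 Asbt+/+ and the shMdr1 Asbt-/- library. Of 22 gut homing and residency genes, 1 was higher (Zfp683, a residency transcription factor, with 0 and 0 against 20 and 13 counts) and 2 lower (Gzma and Itgae).

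**Figure D4:**
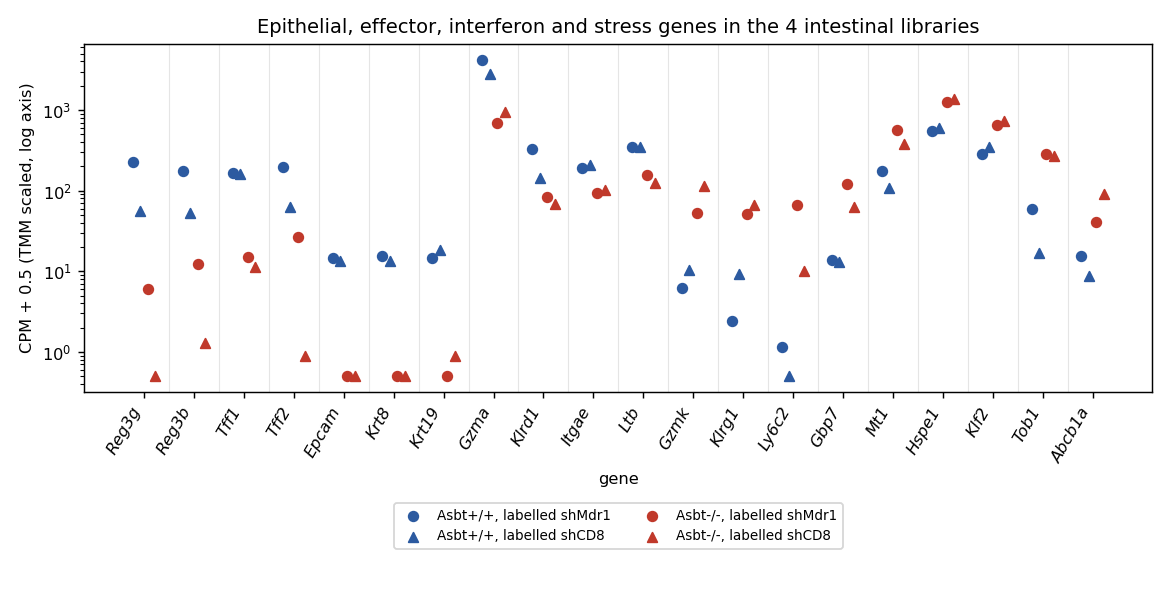
CPM (TMM scaled, plus 0.5, log axis) in the 4 intestinal libraries for 20 genes, with epithelial transcripts at the left, effector and residency genes in the middle and interferon, stress, quiescence and transporter genes at the right. Blue marks Asbt+/+ and red Asbt-/- hosts, circles the libraries labelled shMdr1 and triangles those labelled shCD8, without error bars since each symbol is 1 library. For each gene shown the red symbols lie all above or all below the blue ones, since only genes whose hosts did not overlap are plotted.

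Cytokine genes showed few differences shared by the pairs. Of 18 effector cytokines tested, 1 was at least 2-fold higher in both pairs (5.56%, beside 11% of all genes) and 2 were lower (11.1%, beside 4.06%), with a median of -0.20. Il2, the T cell growth factor, was at 50.1 and 0.789 CPM in Asbt+/+ and 192 and 156 CPM in Asbt-/- hosts (4.02 ± 1.24). The shCD8 Asbt+/+ library held only 2 counts of it, and the pair ratios were 1.92 (shMdr1) and 6.53 (shCD8). Ltb, a membrane-bound lymphotoxin, was at 343 and 348 against 158 and 123 CPM (-1.31 ± 0.32), with close values inside each host. Osm, a cytokine of the interleukin-6 family, had 38 and 43 against 21 and 20 counts.

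Of the cytokines and factors that define helper lineages, Il17a had ratios of like size in both pairs and the others did not. Il17a, the type 17 cytokine, was at 1055 and 2374 CPM in Asbt+/+ and 545 and 1295 CPM in Asbt-/- hosts, lower by 0.95 and 0.87 in the shMdr1 and shCD8 pairs (-0.91 ± 0.31), while the hosts overlapped, the library labelled shCD8 being higher in each host. Ifng, the type 1 cytokine, was at 931 and 377 against 645 and 1111 CPM, with the pairs in opposite directions (-0.53 and 1.56). Tnf, an inflammatory cytokine, was at 253 and 31.5 against 211 and 185 CPM, again in opposite directions (-0.26 and 2.52). Il10, an anti-inflammatory cytokine, had 1 and 156 against 89 and 100 counts, and Foxp3, the regulatory T cell factor, 0 and 113 against 57 and 101, so both were near absent from the shMdr1 Asbt+/+ library only. Tbx21, the T helper 1 factor, had 48 and 45 against 126 and 49 counts (0.42 ± 0.75). The direction or the size of these last 5 differed between the pairs.

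By programme, 2 of 20 type 17 genes were at least 2-fold higher in both pairs and 0 lower: Ccl20, the ligand of CCR6, with 0 and 17 against 89 and 137 counts, and Il23r, with 2 and 0 against 24 and 37. The type 1 list had 1 of 20 higher (Ly6c2, described with the interferon genes) and 0 lower, and the type 2 list 0 of 9 in either direction. Of 17 regulatory T cell genes 3 were higher and 1 was lower, the last being Itgae and the first Klrg1, Lrrc32 and Nrp1. Of these Lrrc32, which anchors latent TGF-beta, had 0 and 0 against 18 and 13 counts, and Nrp1, a semaphorin receptor, 3 and 14 against 60 and 46. Of 17 inhibitory receptor genes, Entpd1, an ectonucleotidase, had 0 and 0 against 24 and 24 counts (at least 13.0-fold higher), and Havcr2, the receptor TIM-3, was lower at 34.0 and 75.3 against 9.51 and 5.99 CPM. The shares higher, 0 to 17.6%, lie on either side of the 11% of all genes.

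Several genes tied to quiescence or to homing to lymphoid tissue were higher in Asbt-/- hosts. Tob1, an antiproliferative regulator of T cells, was at 59.1 and 16.2 CPM in Asbt+/+ and 281 and 271 CPM in Asbt-/- hosts (3.13 ± 0.54), and was the only higher gene that passed when the intestine was fitted alone (adjusted p = 0.0298). Klf2, a transcription factor of T cell quiescence and recirculation, was at 287 and 352 against 650 and 731 CPM (1.12 ± 0.30). Lef1, a factor of naive and memory T cells, was at 28.9 and 21.3 against 60.6 and 86.6 CPM (1.55 ± 0.49). Il6st, the shared signal chain of interleukin-6 receptors, had 1 and 0 against 18 and 17 counts. Of the 20 genes of lymphoid homing and memory, these last 3 were at least 2-fold higher in both pairs (15%, beside 11% of all genes) and 0 lower, and 8 were above 0 in both pairs and 0 below (beside 32.4% and 18.4%), with a median of 0.68. Txnip, an inhibitor of glucose uptake, at 16.0 and 37.9 against 135 and 124 CPM (2.36 ± 0.47), and Sgk1, a serine kinase, at 35.9 and 15 against 136 and 73.8 CPM (2.10 ± 0.43), were added after their values were seen. Of 26 immediate early genes 3 were higher (11.5%) and 0 lower, namely Klf2, Klf4 and Atf3. The transcription factors Klf4 and Atf3 were at 28.9 and 0.789 against 85.6 and 44.7 CPM and at 52.0 and 61.1 against 222 and 149 CPM.

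Interferon-stimulated genes had members on both sides. Of 35 tested, 4 were at least 2-fold higher in both pairs (11.4%, beside 11% of all genes) and 2 lower (5.71%, beside 4.06%), with a median of 0.32. Gbp7, a guanylate-binding GTPase of cell-autonomous defence, was at 13.5 and 12.6 CPM in Asbt+/+ and 120 and 61.9 CPM in Asbt-/- hosts (2.71 ± 0.51). Ly6c2, a surface antigen that interferon and memory differentiation raise, had 1 and 0 against 168 and 24 counts and the smallest unadjusted p of the higher genes (0.000263, edgeR, adjusted p = 0.624). Oas3, which makes the activator of RNase L, had 1 and 0 against 78 and 86 counts, and Oasl2 0 and 0 against 17 and 32. Lower were Irgm1, an immunity-related GTPase that is interferon-gamma inducible, at 77.0 and 106 against 21.8 and 25.1 CPM (-1.95 ± 0.50), and the chemokine Cxcl9, at 55.2 and 70.6 against 17.0 and 29.9 CPM. Interferon-inducible GTPases thus lay on both sides.

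The promoter of Gbp7 shows the element typical of this family. It is at chr3:142530086-142530385 on the plus strand (GRCm38.p6), with capitals at its 1 match to the interferon response element searched, 2 blocks of GAAA set 2 bases apart, here on the opposite strand.
Gbp7: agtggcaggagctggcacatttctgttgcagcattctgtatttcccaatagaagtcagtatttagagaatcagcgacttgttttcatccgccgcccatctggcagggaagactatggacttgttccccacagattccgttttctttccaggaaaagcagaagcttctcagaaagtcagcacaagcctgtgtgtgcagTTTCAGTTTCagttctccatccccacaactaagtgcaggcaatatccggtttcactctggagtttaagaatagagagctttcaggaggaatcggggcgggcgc
The element was in 65.5% of 29 promoters of the interferon list and in 3.24% of the 7465 promoters of tested genes. It was in 2.96% of promoters of genes at least 2-fold higher in both pairs and in 2.69% of those lower.

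Few stress genes passed 2-fold in both pairs. Mt1, a metallothionein that binds zinc and copper, was at 176 and 108 CPM in Asbt+/+ and 563 and 375 CPM in Asbt-/- hosts, with pair ratios of 1.67 and 1.78 (1.73 ± 0.39). Its promoter, at chr8:94178839-94179138 on the plus strand (GRCm38.p6), holds 3 matches in capitals to TGCGCNC or TGCACNC, the core letters of the metal response element, searched on either strand.
Mt1: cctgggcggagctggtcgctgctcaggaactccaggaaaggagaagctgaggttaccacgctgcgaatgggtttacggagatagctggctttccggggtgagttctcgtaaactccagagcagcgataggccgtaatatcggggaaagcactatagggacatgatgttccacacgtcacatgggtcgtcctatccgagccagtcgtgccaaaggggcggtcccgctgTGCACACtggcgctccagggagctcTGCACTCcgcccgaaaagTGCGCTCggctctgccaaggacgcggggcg
That short motif was in 36% of all promoters of tested genes and so marks no gene by itself. Of 26 genes of the NRF2 and oxidative stress list, Mt1 and Gclm, a subunit of the glutathione-synthesising ligase with 1 and 1 against 19 and 49 counts, were at least 2-fold higher in both pairs (7.69%, beside 11% of all genes) and 0 lower, with a median of 0.15. Hmox1, heme oxygenase 1, had 1, 0, 0 and 21 counts, so its level rested on the shCD8 Asbt-/- library alone. Of 23 genes of the unfolded protein and integrated stress responses, Atf3 and Dnajb9, a chaperone cofactor of the endoplasmic reticulum at 45.6 and 13.0 against 95.5 and 128 CPM, were higher (8.7%, again below the 11% of all genes) and 0 lower.

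Heat shock genes were shifted by less than 2-fold in most members. Of 14 tested, 8 were above 0 in both pairs and 0 below (beside 32.4% and 18.4% of all genes), 7 did not overlap between hosts, all higher (beside 23.7%), and 1 passed 2-fold in both pairs (7.14%, beside 11%). That was Hspe1, the mitochondrial co-chaperonin, at 555 and 606 against 1252 and 1355 CPM (1.17 ± 0.29). Hspa1a, the inducible HSP70, was at 1114 and 627 against 1613 and 1947 CPM, and Hsp90aa1 at 713 and 259 against 1033 and 766 CPM. The list median of 0.62 is set beside 0.36 for all genes, and the spleen median was 0.38.

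Transporters and sterol genes were measured close to the detection limit. Abcb1a, which with Abcb1b encodes Mdr1, was at 14.8 and 8.28 CPM in Asbt+/+ and 40.4 and 91.0 CPM in Asbt-/- hosts. Its pair ratios were 1.40 and 3.32 (2.45 ± 0.81, adjusted p = 0.624, edgeR). It was higher in Asbt-/- hosts in the pair labelled with the hairpin against it and in the control pair, on 23, 21, 102 and 228 counts. In the spleen its fold change was -0.11, and the tissue difference was 2.57 ± 1.09. Abcb1b, whose sequence is close enough to share reads, had 29, 45, 45 and 75 counts (0.35 ± 1.09). Of 17 ABC and bile acid transporters tested, 3 were at least 2-fold higher in both pairs (17.6%, beside 11% of all genes) and 1 lower (5.88%, beside 4.06%): Abcc3, an exporter of conjugated bile acids, had 0 and 0 against 17 and 25 counts, Slc10a1, the hepatic bile acid importer, 0 and 0 against 26 and 17, and the mitochondrial transporter Abcb8 was lower with 9 and 78 against 2 and 28. Nr1h4 and Gpbar1, the nuclear and membrane receptors for bile acids, and Nr1i3, a xenobiotic receptor, had no count in these 4 libraries.

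Of 15 tested nuclear receptors of bile acids and lipids, 1 was higher (6.67%, below the 11% of all genes; Nr1d1, with 1 and 1 against 11 and 10 counts) and 1 lower (Rxra, the shared partner of these receptors, with 11 and 90 against 6 and 11). Cholesterol synthesis and uptake had 4 of 18 genes at least 2-fold higher in both pairs (22.2%, beside 11% of all genes) and 0 lower (beside 4.06%), with 0 at an unadjusted p under 0.05. Among them the synthesis enzymes Lss, Dhcr7 and Mvk had 3, 15 and 12 counts over the Asbt+/+ libraries together and 46, 71 and 84 over the Asbt-/- libraries. Acsl1, which activates long-chain fatty acids, was lower with 17 and 63 against 1 and 4 counts. All of these rest on fewer than 100 counts in most libraries.

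**Figure D5:**
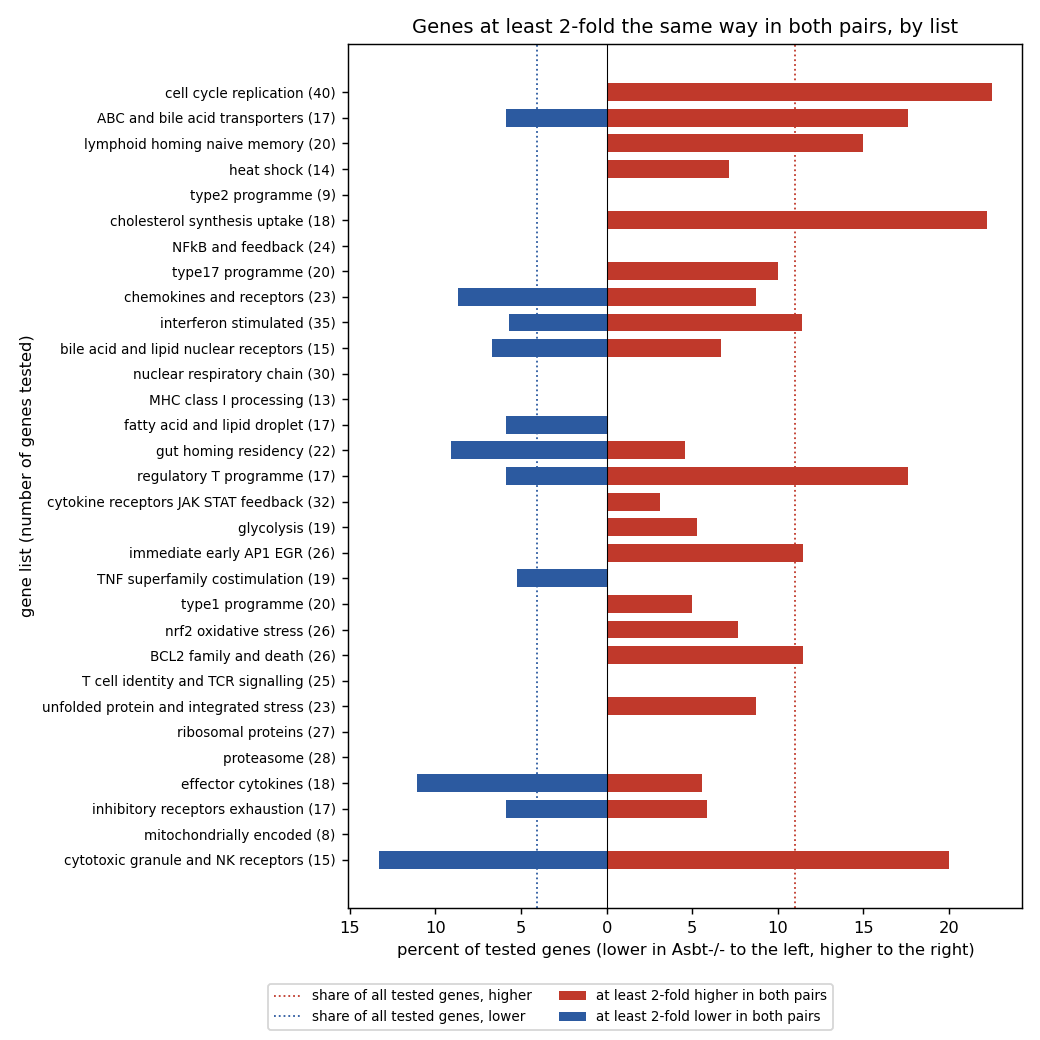
For each of 31 gene lists, ordered by the median intestinal log2 fold change, red bars give the percent of tested members at least 2-fold higher in Asbt-/- hosts in both pairs and blue bars the percent at least 2-fold lower, with the number tested in parentheses. Dotted lines mark the 11% and 4.06% of all tested genes, and the cell cycle list stands at the top with 22.5% higher and 0% lower.

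Several abundant programmes had no member past 2-fold in both pairs, beside 11% of all genes higher and 4.06% lower. Most of their members had a mean of 50 CPM or more. Among all genes at that level only 1.21% were higher and 1.64% lower, so none in lists of this size is no sign of stability. These were the 27 ribosomal protein genes, 28 proteasome genes, 30 nuclear-encoded respiratory chain genes, 8 mitochondrially encoded genes, 24 genes of NF-kB and its feedback, 25 of T cell identity and receptor signalling, and 13 of MHC class I processing. Beside the 32.4% of all genes above 0 in both pairs and the 18.4% below, respiratory chain genes lay above in 12 of 30 and below in 1, for example Cox7a2 at 1445 and 1303 against 2171 and 3591 CPM (1.02 ± 0.36). Mitochondrially encoded genes lay below in 5 of 8 and above in 0, with a median of -0.41 in the intestine and 1.67 in the spleen. The intestinal pairs differed, with a median ratio of -0.78 in the shMdr1 pair and -0.04 in the shCD8 pair, where 3 of 8 were above 0. The shMdr1 pair holds the Asbt+/+ library with 18.3% mitochondrial counts. In the shCD8 pair the shares were 7.06% in Asbt+/+ and 7.27% in Asbt-/- hosts. For 7 of these 8 genes the tissue difference had an unadjusted p under 0.05 (edgeR), beside 4.31% of all genes. All 8 are part of the mitochondrial share of a library, so they are not independent of each other. For mt-Nd5, a complex I subunit, the intestinal levels were 2743 and 1398 against 1233 and 1013 CPM. Its host fold change was -0.81 in the intestine and 1.91 in the spleen. It had the smallest p for a lower host fold change in the intestine than in the spleen (difference -2.72 ± 0.56, adjusted p = 0.937, edgeR). Proteasome genes were above 0 in both pairs in 3 of 28 and below in 7, and T cell identity genes in 9 and 4 of 25. 

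The remaining lists had few shared members. BCL2 family and death genes had 3 of 26 higher (11.5%, beside 11% of all genes) and 0 lower. Bcl2l1, the survival protein BCL-XL, was at 8.99 and 6.31 against 29.3 and 29.9 CPM. Bid had 0 and 0 against 23 and 10 counts, and Tnfrsf10b 4 and 0 against 51 and 16. Chemokines and their receptors had 2 of 23 higher, Ccl20 and Cxcl2, and 2 lower, Cxcl9 and Ccr1. Glycolysis had 1 of 19 higher (Pfkm, the muscle form of phosphofructokinase), cytokine receptors with JAK-STAT feedback 1 of 32 higher (Il23r), and TNF superfamily costimulation 1 of 19 lower (Ltb), each at or below the share of all genes but the last, at 5.26% beside 4.06%.

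The 15 genes per direction with the largest smaller-pair ratio, among those with at least 20 counts in each library of the higher host, were dominated by genes at or near 0 in the other host. The 15 higher genes had 0 to 5 counts in each Asbt+/+ library and 31 to 197 in each Asbt-/- library, with unadjusted p between 0.00146 and 0.0153 (edgeR). They include Pf4, platelet factor 4, with 1 and 0 against 84 and 154 counts, and Oas3, Diaph3 and Vrk1. The 15 lower genes had 23 to 412 counts in each Asbt+/+ library and 0 to 65 in each Asbt-/- library. They include Akap7, an anchor of protein kinase A, with 23 and 246 against 0 and 2 counts, beside the Reg3, trefoil and linker histone genes. Rnf115, a ubiquitin ligase named by its small p, was at 16.0 and 9.46 against 78.1 and 94.6 CPM (2.8 ± 0.52). Rn18s-rs5, a ribosomal RNA fragment, was at 17697 and 3402 against 5313 and 4259 CPM, highest among the intestinal libraries in the shMdr1 Asbt+/+ one. In the spleen it was higher in Asbt-/- hosts, at 3686 and 3125 CPM in Asbt+/+ and 26304 and 16057 CPM in Asbt-/- libraries. Prrc2c and Arid4a, named for their tissue difference, were at 204 and 114 against 101 and 51.1 CPM and at 73.8 and 101 against 36.1 and 44.7 CPM, and were higher in the spleen of Asbt-/- hosts (1.06 and 1.18).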

How the data were processed

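RNA was measured in sorted CD4+ effector T cells, 1 library for each of 8 combinations of tissue, hairpin and host. Libraries were prepared, per the labels' protocols, with SMART-Seq chemistry for very small inputs followed by a NEBNext kit, so amplified copies carry no molecular identifier. The authors deposited raw read counts per gene, in whole numbers, 1 column per library. TopHat, HTSeq, DESeq2 and build mm9 are named in the submitters' processing notes. Their versions and roles, and whether counting used strand, are not given here, so overlapping, antisense and near-identical genes are uncertain.

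Counts were filtered with filterByExpr, which kept 10000 genes with 99.52% of counts, scaled by TMM and fitted with edgeR 4.0.16 (R 4.3.3) as tissue, tissue by hairpin and tissue by host (2 residual degrees of freedom). An approximate SE was taken as the size of the log2 fold change over the square root of its F statistic. Pair ratios used a prior count of 2. Genes were named as follows: past the edgeR threshold, up to 12 per direction (none passed); up to 15 per direction at least 2-fold in both pairs with a mean of 20 CPM and 20 counts per library in the higher host; up to 4 per list and direction, or 2 of the highest level where a list had none; 12 fixed genes; and 5 per direction by smallest p for the host and tissue differences. Not every gene so named is described. The members and lists were chosen with earlier results of these data known. Scripts were tested on simulated data. Alternatives used DESeq2 1.42.0 and limma 3.58.1. Promoters came from RefSeq (GRCm38.p6), matched by symbol for 7465 tested genes, and no coordinates were taken from mm9.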

Additional observations from a re-analysis of the deposited data

How the results depend on the processing

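The count of genes passing for the host effect was 0 with edgeR, with DESeq2 size factors, without the filter, without the hairpin term, with limma-voom, without mitochondrial, hemoglobin and Rn18s-rs5 counts and with genes of at least 50 CPM. It was 65 with DESeq2, 6 with the hairpin pair as replicate block in the 4 intestinal libraries alone, and 1 with voom quality weights, and 6 to 4158 when 1 library was left out (4113 without the shMdr1 and 1036 without the shCD8 Asbt+/+ library, 4158 and 1074 without the Asbt-/- ones). Leaving out an intestinal library leaves 1 pair there, assumed to vary like the spleen libraries, so those counts compare libraries and not hosts. The tissue difference gave 0 with edgeR, 22 with DESeq2 and 0 to 3297 when 1 library was left out. Genes at least 2-fold in both pairs, higher, lower and opposite, numbered 584, 244 and 668 with a prior count of 10, 1693, 721 and 2209 at 1.5-fold, 477, 115 and 379 at 4-fold, 31, 42 and 82 at 50 CPM or more, and 544 higher and 238 lower with at least 20 counts per library. Leaving out a library was not possible for these counts. The fits at 50 CPM or more, with quality weights and without mitochondrial, hemoglobin and Rn18s-rs5 counts were chosen after seeing the data.

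Signs turned for genes and lists whose pairs disagree. With 1 library left out, the fold change ran from -0.53 to 1.56 for Ifng, -0.26 to 2.55 for Tnf, -0.63 to 5.66 for Il10, -0.15 to 8.61 for Foxp3, -3.59 to 7.26 for Hmox1, -0.066 to 0.75 for Abcb1b, -1.11 to 3.96 for Hist1h1a, -1.8 to 8.7 for Cd8a and -1.74 to 0.32 for Rn18s-rs5. Hist1h1a and Cd8a also turned with voom (-0.014 and -0.26), without the hairpin term (-0.89 and -0.92) and with quality weights (-0.46 and -0.64). List medians ran from -0.696 to 0.27 (cytotoxic), -0.0066 to 0.43 (type 1), -0.22 to 0.36 (ribosomal), -0.397 to 0.24 (gut homing) and -0.026 to 2.21 (transporters). Depth limits genes with under 20 counts per library most.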
